A study of Mus musculus with 2 samples.

Results

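The 10 genes described here are those by which neurons are usually classified according to the transmitter they release. They were taken by symbol from the deposited table and all 10 were found among its 45578 genes. They comprise the vesicular glutamate transporters Slc17a6, Slc17a7 and Slc17a8, the vesicular GABA and glycine transporter Slc32a1, the GABA-synthesising enzymes Gad1 and Gad2, the vesicular monoamine transporter Slc18a2, the catecholamine enzyme Th, the vesicular acetylcholine transporter Slc18a3 and the acetylcholine enzyme Chat. The libraries came from polysomes of control mouse brains at postnatal day 5 (P5) and formed a single group of 2 biological replicates. The animals were Smn+/-; SMN2tg/0 on the FVB background, so every brain carried a disrupted allele of the mouse survival motor neuron gene together with the human SMN2 transgene. Ribosome profiling counts the mRNA stretches, here selected at 25 to 35 nucleotides, that ribosomes protect from nuclease. Summed over all genes there were 1866831 footprints in replicate 1 and 5261878 in replicate 2, of which the 10 genes took 1904 and 4510, or 0.102% and 0.0857%. Levels of 1 gene are given as CPM, the count scaled to a library total of 1000000, and levels of different genes are compared per kilobase of the longest annotated coding sequence.

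A neuron that releases a classical transmitter needs an enzyme or an uptake step to supply it and a transporter that loads it into synaptic vesicles with the proton gradient across the vesicle membrane. Glutamate is present in every cell, so a glutamatergic neuron is recognised by its vesicular transporter. GABA, catecholamine and acetylcholine neurons are recognised by their synthetic enzymes as well as by their transporters. In the rodent forebrain Slc17a6 is known to precede Slc17a7 during development, and Slc17a7 becomes the main form of cortex, hippocampus and cerebellar granule cells after birth.

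Slc17a6, Slc17a7 and the GABA genes stood well above Slc17a8 and the genes of monoamine and acetylcholine transmission in both libraries. Gad1 had the highest mean level per kilobase, at 139 ± 3.81 (SD, n = 2), followed by Slc32a1 at 118 ± 34.6, Slc17a6 at 103 ± 18.2, Gad2 at 79.0 ± 13.7 and Slc17a7 at 68.2 ± 4.34. Below a gap came Slc18a2 at 19.5 ± 3.16, Th at 12.9 ± 0.0422, Slc18a3 at 6.64 ± 0.116, Slc17a8 at 4.20 ± 0.906 and Chat at 1.70 ± 0.328. Among the 13349 tested genes with a coding sequence, a gene being tested when its mean count was at least 10, all 10 were tested and their means ran from percentile 89.1 for Gad1 to percentile 2.67 for Chat. Within this order, 2 of the 9 neighbouring pairs had separate counting intervals in both libraries and kept their order in both. They were Slc17a6 over Gad2 and Slc17a7 over Slc18a2. The other 7 pairs were not separated in this way, and Gad1 and Slc32a1 changed places between the libraries. The place of genes with several transcripts depends on which are counted. With protein-coding transcripts alone Gad1 stood at 76.6, below Slc32a1 and Slc17a6, and Th stood at 6.58, about level with Slc18a3. In whole brain, fewer cells of a type and fewer footprints per cell cannot be told apart.

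**Figure D1:**
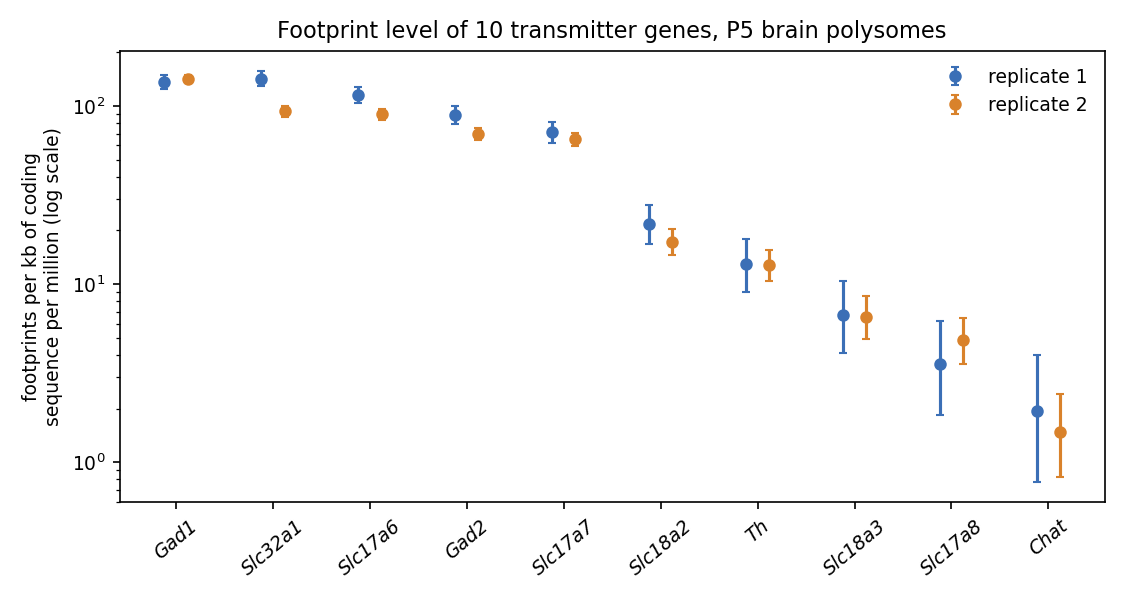
Level in CPM per kilobase of coding sequence (log scale) of the 10 genes in each library, ordered by their mean. Points are single libraries and bars are exact 95% counting intervals. The first 5 genes, Gad1 to Slc17a7, lie between 65.2 and 142, and the other 5 lie at or below 21.7.

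The tissue label was checked against marker genes. All 9 neuronal markers had footprints in both libraries, from Nefm at 137 to Stmn2 at 1346 per kilobase, and summed to 6038 and 4735 CPM in replicates 1 and 2. Markers of astrocytes summed to 1866 and 1893 CPM, and those of oligodendrocytes to 685 and 883 CPM. Microglial markers summed to 202 and 217 CPM and endothelial markers to 245 and 193 CPM. Pituitary markers summed to 14.5 and 4.94 CPM, with Prl and Tshb at 0 in both.

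Regional markers were summed in the same way. Forebrain markers summed to 1123 and 836 CPM, whereas cerebellar markers summed to 546 and 682 CPM. Hox and other genes of hindbrain and spinal cord summed to 4.82 and 34.2 CPM, with 4 of 7 at 0 in replicate 1 and 2 of 7 at 0 in replicate 2. Hoxb5 had 88 footprints in replicate 2 and 0 in replicate 1, which at that depth allows a level of up to 1.61 CPM. Markers of striatum summed to 319 and 309 CPM and those of thalamus to 265 and 301 CPM. Markers of midbrain and raphe summed to 124 CPM in both, of which Nr4a2 made up 76.6 and 94.3 CPM, while En1 had 13.9 and 8.74 CPM and Foxa1 6.96 and 2.28 CPM. The part of these regional differences in the results for the transmitter genes was not tested.

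Slc17a6 (ENSMUSG00000030500), which encodes VGLUT2, had the highest footprint level per kilobase of the vesicular glutamate transporters. It had 377 footprints in replicate 1 and 826 in replicate 2, or 202 CPM (Clopper-Pearson 95% interval 182 to 223) and 157 CPM (146 to 168). The intervals did not overlap and replicate 2 was the lower. Slc17a7 (ENSMUSG00000070570), which encodes VGLUT1, had 224 and 577 footprints, or 120.0 CPM (105 to 137) and 109.7 CPM (101 to 119), so that its libraries overlapped. Slc17a8 (ENSMUSG00000019935), which encodes VGLUT3, a transporter of small groups of neurons that often release another transmitter as well, had 12 and 46 footprints, or 6.43 CPM (3.32 to 11.2) and 8.74 CPM (6.40 to 11.7). Footprint intervals cover counting error only, not the spread among animals. They are too narrow even for counting error if PCR copies were counted, since such copies are not independent molecules.

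The relative use of the glutamate transporters could be read within each library, where scaling between libraries plays no part. Per kilobase of coding sequence, Slc17a6 exceeded Slc17a7 by a factor of 1.62 (1.37 to 1.92) in replicate 1 and 1.38 (1.24 to 1.53) in replicate 2, a mean of 1.50 ± 0.171 (SD, n = 2). Both intervals lay above 1 and overlapped each other. The order depends on the length used. The transcripts have 4319 and 2939 nucleotides, and per kilobase of transcript the ratio was 1.15 (0.968 to 1.36) in replicate 1 and 0.974 (0.875 to 1.09) in replicate 2, a mean of 1.06, with 1 inside both intervals. Of the footprint level summed over the 3 transporters, Slc17a6 made up 60.7% and 56.2%, Slc17a7 37.5% and 40.8%, and Slc17a8 1.87% and 3.03% in replicates 1 and 2.

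Slc32a1 (ENSMUSG00000037771), the transporter VGAT that loads both GABA and glycine, had 419 and 775 footprints, or 224 CPM (203 to 247) and 147 CPM (137 to 158). The intervals lay well apart and the level was lower in replicate 2. The summed level of the vesicular glutamate transporters was 1.34 times that of Slc32a1 in replicate 1 and 1.71 times in replicate 2, a mean of 1.52 ± 0.264 (SD, n = 2). Slc17a6 alone was below Slc32a1 in replicate 1, at a ratio of 0.812 (0.704 to 0.935), and not separated from it in replicate 2, at 0.962 (0.871 to 1.06). Slc17a7 was below Slc32a1 in both, at 0.501 (0.424 to 0.591) and 0.698 (0.626 to 0.779), and these intervals did not overlap.

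Gad1 (ENSMUSG00000070880) and Gad2 (ENSMUSG00000026787) encode GAD67 and GAD65, the enzymes that make GABA from glutamate; GAD67 is known to supply most basal GABA and GAD65 to be concentrated at synaptic endings. Gad1 had 455 and 1333 footprints, or 244 CPM (222 to 267) and 253 CPM (239.9 to 267), which overlapped. Gad2 had 291 and 641 footprints, or 156 CPM (138 to 175) and 122 CPM (113 to 132), with no overlap and the lower level in replicate 2. Per kilobase Gad1 exceeded Gad2 by a factor of 1.54 (1.33 to 1.79) in replicate 1 and 2.05 (1.87 to 2.26) in replicate 2, a mean of 1.80 ± 0.36 (SD, n = 2). Gad1 was not separated from Slc32a1 in replicate 1, at 0.962 (0.840 to 1.10), and exceeded it in replicate 2, at 1.52 (1.39 to 1.67). With protein-coding transcripts alone Gad1 was below Slc32a1 in both, at 0.533 (0.454 to 0.624) and 0.830 (0.749 to 0.919).

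The direction of the comparison of Gad1 with Gad2 depended on which transcripts were counted. Gad1 had 8 annotated transcripts and Gad2 had 2. With the highest protein-coding transcript of each gene in place of the sum, the mean ratio was 0.690, so that Gad2 was the higher. With all protein-coding transcripts it was 1.16, at 1.01 (0.844 to 1.21) in replicate 1 and 1.32 (1.18 to 1.48) in replicate 2.

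**Figure D2:**
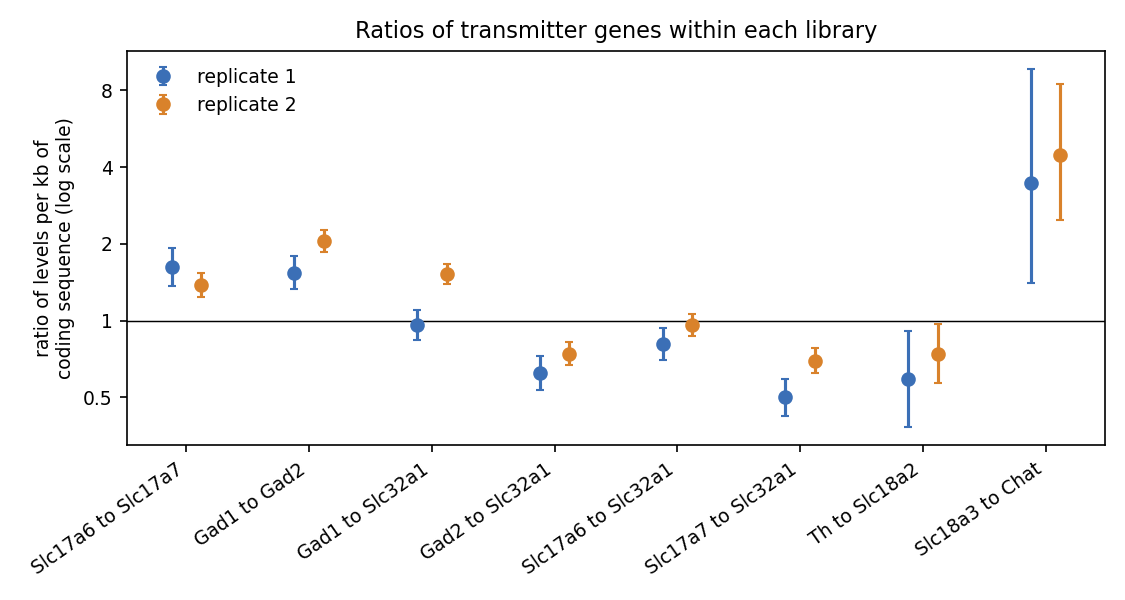
Ratios of levels per kilobase of coding sequence (log scale) for pairs of transmitter genes within each library, with exact 95% intervals; the line marks equal levels. On this coding-length scale Slc17a6 exceeded Slc17a7 in both libraries, and the ratios of Gad1 to Gad2, Gad1 to Slc32a1 and Slc17a7 to Slc32a1 had intervals that did not overlap between the libraries.

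The distribution over annotated transcripts was close between the libraries for Gad1 and Gad2. Gad1-001, the transcript with the full coding sequence of 1782 nucleotides, held 32.3% of the Gad1 footprints in replicate 1 (28.0 to 36.8) and 32.6% in replicate 2 (30.1 to 35.2). A processed transcript without an annotated coding sequence, Gad1-006, held 33.2% (28.9 to 37.7) and 31.4% (28.9 to 33.9). Gad1-006 is nearly as long as Gad1-001, with 2996 against 3355 nucleotides, and how fragments shared by transcripts were counted is not stated.

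Some shorter Gad1 transcripts shared an annotated coding sequence of 672 nucleotides. Embryonic Gad1 transcripts are known to carry an extra exon whose stop codon truncates the enzyme, but the deposited lengths do not tell whether these are those forms. They were Gad1-002, a predicted target of nonsense-mediated decay, with 5.05% (3.23 to 7.49) and 7.95% (6.56 to 9.54), Gad1-003 with 5.05% (3.23 to 7.49) and 5.78% (4.59 to 7.17), and Gad1-004 with 6.81% (4.68 to 9.53) and 5.85% (4.65 to 7.25). The retained intron Gad1-005 held 6.37% (4.31 to 9.03) and 6.23% (4.99 to 7.66). Each of the 8 shares overlapped between the libraries. Gad2 placed 84.5% (79.9 to 88.5) and 84.7% (81.7 to 87.4) of its footprints on its coding transcript Gad2-001 and the rest on a short processed transcript.

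**Figure D3:**
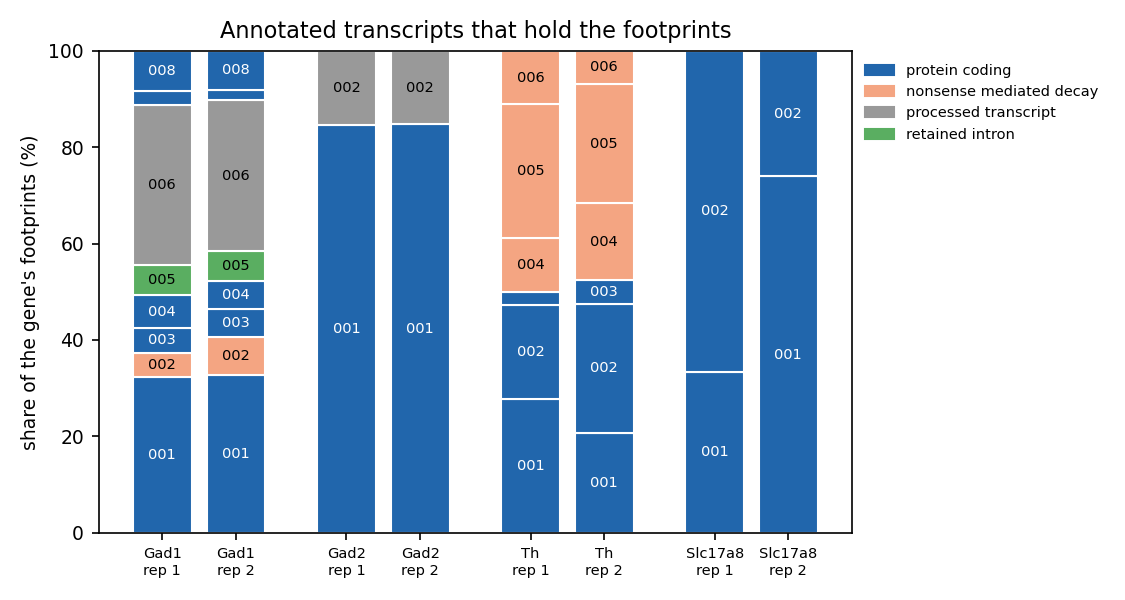
Share of each gene's footprints (%) on its annotated transcripts, coloured by biotype and numbered as in the transcript names, for the 4 genes with more than 1 transcript in replicates 1 and 2. Gad1-001 and Gad1-006 hold about equal shares in both libraries, and the Slc17a8 transcripts change order at 12 and 46 footprints.

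Slc18a2 (ENSMUSG00000025094), the transporter VMAT2 that loads dopamine, noradrenaline, serotonin and histamine, had 63 and 141 footprints. These gave 33.7 CPM (25.9 to 43.2) and 26.8 CPM (22.6 to 31.6), which overlapped. Th (ENSMUSG00000000214), tyrosine hydroxylase, which catalyses the rate-limiting step of dopamine and noradrenaline synthesis, had 36 and 101 footprints, or 19.3 CPM (13.5 to 26.7) and 19.2 CPM (15.6 to 23.3). The libraries were thus close for Th. Per kilobase Th stood below Slc18a2, at a ratio of 0.593 (0.383 to 0.907) in replicate 1 and 0.744 (0.570 to 0.967) in replicate 2. Per kilobase of the longest transcript the order turned, at 1.09 (0.702 to 1.67) and 1.36 (1.05 to 1.77). With protein-coding transcripts alone, per kilobase of coding sequence, the ratio was 0.297 (0.165 to 0.507) and 0.390 (0.279 to 0.539).

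Th footprints were divided among 6 transcripts, none of which held more than 27.8% in either library. The transcript with the longest coding sequence, Th-002, held 19.4% (8.19 to 36.0) in replicate 1 and 26.7% (18.4 to 36.5) in replicate 2. The 3 transcripts annotated as targets of nonsense-mediated decay held 50.0% (32.9 to 67.1) and 47.5% (37.5 to 57.7) together. Slc17a8-001, the longer Slc17a8 transcript, held 33.3% (9.92 to 65.1) and 73.9% (58.9 to 85.7) of its gene. The ends of these intervals overlapped, but neither share lay inside the interval of the other.

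The cholinergic genes were the sparsest of the set together with Slc17a8. Slc18a3 (ENSMUSG00000100241), the transporter VAChT, had 20 and 55 footprints, or 10.7 CPM (6.54 to 16.5) and 10.5 CPM (7.87 to 13.6), close in both libraries. Chat (ENSMUSG00000021919), choline acetyltransferase, had 7 and 15 footprints, or 3.75 CPM (1.51 to 7.73) and 2.85 CPM (1.60 to 4.70), also overlapping. Per kilobase Slc18a3 exceeded Chat by a factor of 3.48 (1.41 to 9.73) and 4.46 (2.48 to 8.50), with both intervals above 1. In the RefSeq annotation of assembly GRCm38.p6 Slc18a3 lies inside the span of Chat on the same strand, an arrangement known as the cholinergic gene locus. How fragments from this shared span were divided between them is not stated. The deposited table held a single Chat transcript, so other Chat transcripts were not analysed here.

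Each gene's counts in the libraries were then compared by a two-sided exact binomial test, with the share of replicate 2 taken from TMM (trimmed mean of M values) library sizes and p-values adjusted by the Benjamini-Hochberg method over all 16427 genes tested. Slc32a1, Slc17a6 and Gad2 were called lower in replicate 2, and no gene of the set was called higher. That is 3 of 10 genes, against 17.4% called in either direction among all genes tested, 5.95% higher and 11.5% lower. An unadjusted p under 0.05 was found for 5 of the 10, beside 4547 of all 16427 genes tested. Such a test sets 1 library against another and accounts for counting noise, not for the spread among animals. With edgeR's exact test and a dispersion estimated from the same pair of libraries, 0 of the 10 were called and 1 had an unadjusted p under 0.05. Over all 16427 genes it called 11, and 721 had an unadjusted p under 0.05. That dispersion took the 2 libraries as 1 group and so included the difference under test, which left little room for a call.

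The log2 ratio of replicate 2 over replicate 1 was -0.73 for Slc32a1 (adjusted p = 2.89e-14, exact binomial test), -0.49 for Slc17a6 (adjusted p = 2.52e-06) and -0.48 for Gad2 (adjusted p = 7.50e-05). It was -0.25 for Slc17a7 (adjusted p = 0.115 in the exact binomial test) and -0.070 for Gad1 (adjusted p = 0.628), which turned to 0.056 with library totals, and neither passed. For the sparser genes it was -0.45 for Slc18a2 and for Chat, -0.15 for Slc18a3, -0.13 for Th and 0.30 for Slc17a8, with adjusted p-values of the exact binomial test from 0.159 to 0.875. The median over the 10 genes was -0.35 and that over all genes tested 0.0056. With library totals in place of TMM the medians were -0.23 and 0.13, and the same 3 genes were called lower, against 19.0% of all genes in either direction, 11.5% higher and 7.47% lower. With the trend of the log2 ratio along footprint density removed they were also called, against 11.7% of all genes, 5.27% higher and 6.46% lower. Among the markers, 6 of 9 neuronal genes, 5 of 7 forebrain genes and 2 of 5 tested genes of midbrain and raphe were called lower with TMM, beside the 11.5% of all genes. Called higher were 1 neuronal gene, Elavl4, 3 of 5 tested genes of hindbrain and spinal cord and 1 of 8 cerebellar genes, beside 5.95% of all genes. Of 6 oligodendrocyte genes 3 were called higher and 2 lower, and of 5 microglial genes 1 higher and 1 lower. In astrocytes and endothelium 1 gene each was called lower, and in striatum and thalamus 0 were called. The median log2 ratio was -0.38 over the forebrain genes and -0.76 over the 5 tested genes of midbrain and raphe. In the latter list Nr4a2, at 0.17, and Lmx1b, at 1.10, went the other way without a call. The summed level of that list was 124 CPM in both libraries.

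The log2 ratio between the libraries also moved with the number of transcripts annotated for a gene, a comparison chosen after the data were examined. Among all tested genes with at least 50 CPM, the median log2 ratio was -0.44 for the 1145 genes with 1 transcript, -0.082 for the 2700 genes with 2 to 7 and 0.13 for the 1428 genes with 8 or more. Called lower in replicate 2 were 61.9%, 24.4% and 5.67% of these genes. Slc32a1, Slc17a6 and Slc17a7 have 1 annotated transcript, Gad2 has 2 and Gad1 has 8. A running median was then subtracted, taken over genes of like count within the same class of 1, 2 to 7, or 8 or more transcripts. The log2 ratio of Slc17a6 was then 0.042 and that of Slc32a1 -0.20, and neither was called (adjusted p = 0.885 and 0.130, exact binomial test). Gad2 remained called, at -0.39 (adjusted p = 0.00378, exact binomial test). Thus 1 of 10 genes was called against 10.7% of all genes, 4.71% higher and 6.04% lower. Gad2, with 2 transcripts, was set against genes with up to 7, and whether part of the pattern remained in its value was not tested. The ratio of Gad1 to Gad2 or to Slc32a1 sets a gene of 8 transcripts against genes of 2 or 1, and the part of this pattern in the higher ratios of replicate 2 was not tested. Of the neuronal, forebrain, midbrain and raphe markers called lower with TMM, Elavl3, Nefm, Neurod6 and Tbr1 lost their call with the running median subtracted. The other markers of these lists called lower kept theirs, and Elavl4 lost its call.

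**Figure D4:**
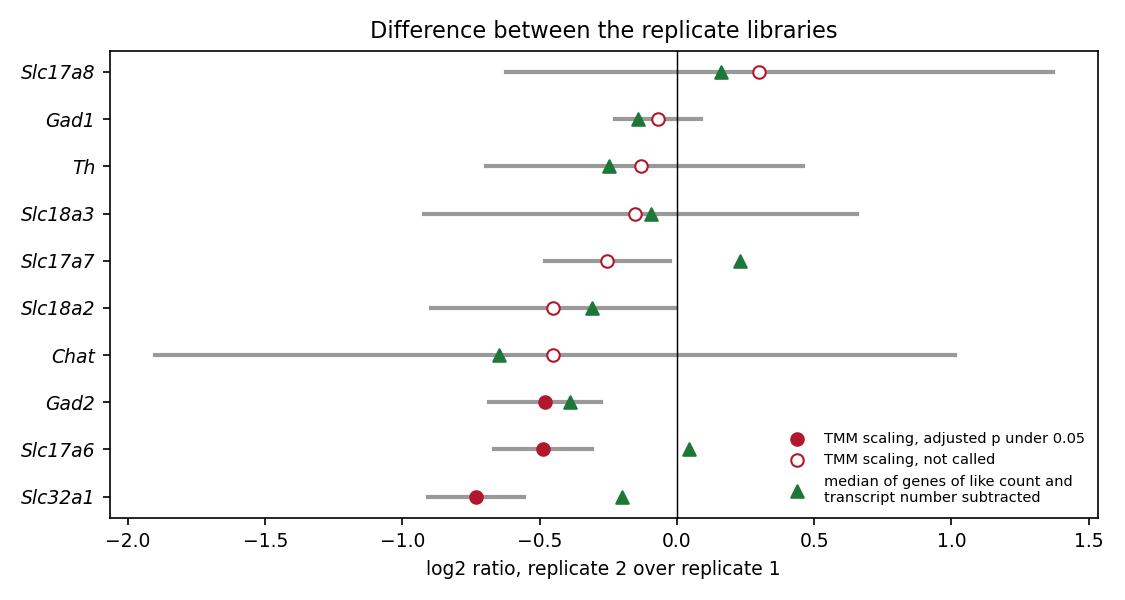
Log2 ratio of replicate 2 over replicate 1 for the 10 genes. Circles are values with TMM scaling, filled where called, and grey bars are exact 95% counting intervals. Triangles are values after subtracting the running median of genes with like counts in the same class of 1, 2 to 7, or 8 or more transcripts. Slc17a6 moves from -0.49 to 0.042 and Gad2 from -0.48 to -0.39.

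**Figure D5:**
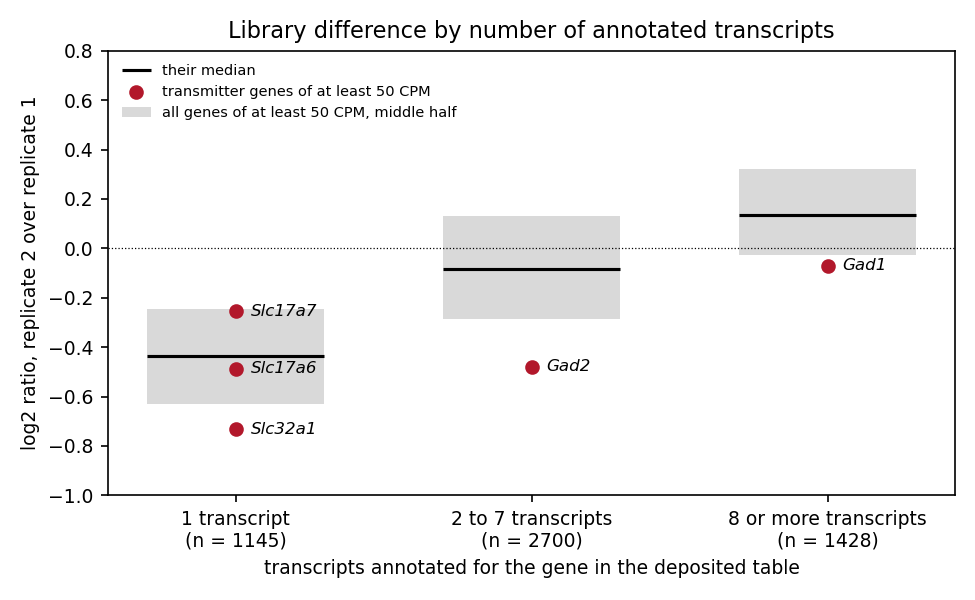
Log2 ratio of replicate 2 over replicate 1 by the number of annotated transcripts, for genes of at least 50 CPM. Grey boxes run from the lower to the upper quartile, black lines are medians (-0.44, -0.082 and 0.13), and red points are the 5 transmitter genes above that level; Slc17a6 and Slc17a7 lie inside the box of genes with 1 transcript, while Slc32a1, Gad2 and Gad1 lie below their boxes.

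The genes that surround these steps were taken from 4 lists of synthesis, uptake and breakdown. Of 45 listed genes 41 were tested, and 1 was called higher and 8 lower in replicate 2, beside the 5.95% and 11.5% of all genes. Their median log2 ratio was -0.11. With library totals 4 were higher and 6 lower, beside 11.5% and 7.47% of all genes. With the density trend removed 1 was higher and 5 lower, beside 5.27% and 6.46% of all genes. The directions thus depended on the scaling, as they did over all genes. Of the 9 called, Got2, Slc1a4 and Slc44a1 remained called after the running median by transcript number was subtracted. Slc1a3 and Ache were called in addition, beside 10.7% of all genes called in that setting.

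In the glutamate list 5 of 14 tested genes were called with TMM, all lower in replicate 2, beside the 11.5% of all genes called lower. With library totals Glud1, Got2 and Slc1a4 were lower and the uptake carriers Slc1a1 and Slc1a2 higher, and with the density trend removed Slc1a4 was lower and Slc1a2 higher. With the running median by transcript number subtracted Got2, Slc1a3 and Slc1a4 were lower, and Glul, Glud1 and Slc38a2 were not called. Glul, the glutamine synthetase of astrocytes, had 327 and 296 CPM. It was called at a log2 ratio of -0.27 (adjusted p = 0.00127, exact binomial test) with TMM. It was not called with library totals, with the density trend removed or with the running median by transcript number subtracted. The astrocytic glutamate uptake carrier Slc1a3 had 549 CPM in each library, summed over 8 annotated transcripts. It was the highest gene of the 4 lists per kilobase, at 336 ± 0.00662 (SD, n = 2). That SD understates the error, since the counting intervals per kilobase were 316 to 358 in replicate 1 and 324 to 349 in replicate 2.

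In the GABA and glycine list 3 of 8 tested genes were called with TMM, all lower in replicate 2, beside the 11.5% of all genes called lower. With the running median by transcript number subtracted 0 were called, beside 10.7% of all genes. Slc6a11, the GABA carrier GAT3 of astrocytes, had 409 and 286 CPM and a log2 ratio of -0.64 (adjusted p = 2.28e-20, exact binomial test). It has 1 annotated transcript, and with the running median by transcript number subtracted it was at -0.094 and not called. Abat, the enzyme that breaks GABA down, had 237 and 259 CPM and was not called. The glycine carrier Slc6a5, a marker of glycinergic neurons that share Slc32a1 with GABA neurons, had 19.8 CPM (14.0 to 27.3) and 31.7 CPM (27.1 to 36.9). Its log2 ratio of 0.54 was not called with TMM (adjusted p = 0.139, exact binomial test) and was called with library totals (adjusted p = 0.0458). Slc32a1 per kilobase was 17.1 times Slc6a5 (12.2 to 24.6) in replicate 1 and 6.99 times (5.90 to 8.31) in replicate 2, with no overlap.

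In the monoamine list no call was made among 15 tested genes, the lowest adjusted p of the exact binomial test being 0.0804, for Slc6a2. With the density trend removed Slc6a2 was called lower, at a log2 ratio of -1.07 (adjusted p = 0.0312, exact binomial test). The plasma membrane carriers of dopamine, noradrenaline and serotonin mark the neurons that Slc18a2 serves. Slc6a3, for dopamine, had 19.8 and 13.7 CPM, Slc6a2, for noradrenaline, 13.9 and 8.17 CPM, and Slc6a4, for serotonin, 28.4 and 26.0 CPM. All 3 log2 ratios were negative, from -0.85 to -0.25, and each pair of counting intervals overlapped. Ddc, which follows Th in dopamine synthesis and also makes serotonin, stood above Th, with Th at 0.489 (0.318 to 0.740) and 0.535 (0.415 to 0.686) of its level per kilobase. Dbh, which turns dopamine into noradrenaline, had 8 and 22 footprints and stood below Th by a factor of 5.62 (2.57 to 14.0) and 5.73 (3.59 to 9.55). With protein-coding transcripts alone that factor was 2.81 (1.16 to 7.47) and 3.15 (1.87 to 5.50). Th was then at 0.354 (0.194 to 0.619) and 0.419 (0.297 to 0.583) of Ddc. Tph2, the serotonin enzyme of raphe neurons, had 22 and 37 footprints. Slc18a1, the monoamine transporter VMAT1 of endocrine cells, had 1 footprint in each library.

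In the cholinergic list 1 of 4 tested genes was called with TMM, beside the 17.4% of all genes. Slc5a7, the high-affinity choline carrier of cholinergic endings, had 15 and 57 footprints, or 8.04 CPM (4.50 to 13.3) and 10.8 CPM (8.20 to 14.0). Per kilobase Slc18a3 was 1.46 times Slc5a7 (0.710 to 3.06) in replicate 1 and 1.06 times (0.715 to 1.56) in replicate 2, and both intervals included 1. Ache, acetylcholinesterase, had 226 and 214 CPM, and per kilobase it stood at 119 ± 4.49 (SD, n = 2) against 5.41 ± 1.13 for Slc5a7. Slc44a1, a choline carrier found in many cell types, was the gene called, higher in replicate 2 at 39.6 and 62.3 CPM with a log2 ratio of 0.52 (adjusted p = 0.0255, exact binomial test). That call was lost with the density trend removed, at 0.39 (adjusted p = 0.174, exact binomial test).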

How the data were processed

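The authors deposited whole-number footprint counts per annotated transcript, with 1 column per replicate and annotated lengths, per the file headers. The submitters' processing notes name Trimmomatic 0.36, Bowtie2 2.2.6, SAMtools and build GRCm38.p4; the handling of strand, duplicates and fragments matching several transcripts is not given in the sources used here. Counts of a gene's transcripts were summed (109463 transcripts). Testing was limited to genes averaging 10 or more counts, and those with an adjusted p under 0.05 were called. The exact binomial test (SciPy 1.17.1) was used because a single group gives a quasi-likelihood fit no contrast. It was tested on simulated libraries with counting noise alone, which cannot show how it behaves with further spread between libraries. TMM factors came from edgeR 4.0.16, size factors from DESeq2 1.42.0. They moved log2 ratios by -0.13 against library totals. Log2 ratios used a prior of 0.5 CPM. The floor for a count of 0 was 3 counts, and running medians spanned 501 genes. The genes, lists and tests were chosen with earlier results of these data known. Named genes were all 10 of the set, and those of 4 pathway lists in the same step or role. Nothing tells whether each replicate was 1 animal or several.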

Additional observations from a re-analysis of the deposited data

How the results depend on the processing

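Of 107 log2 ratios of the 10 genes under alternatives, 99 kept their direction and their side of the threshold. Part of these could not change. The priors of 0.1 and 5 CPM do not enter the test and cannot turn a direction. With edgeR's exact test the log2 ratios were those of the main test, so only the call could differ. The number called stayed at 3, as the same 3 genes, with DESeq2 size factors, library totals, no filter, a mean count of at least 50 (which left 7 of the 10 tested), the highest transcript, protein-coding transcripts and the density trend removed. It was 1 with the running median by transcript number subtracted, an alternative added after the data were seen, and 0 with edgeR's exact test, where 1 gene had an unadjusted p under 0.05. The first of these turned the log2 ratio of Slc17a6 to 0.042 and of Slc17a7 to 0.23. Gad1 turned to 0.056 with library totals and 0.017 with the highest transcript. Over all genes, 2861 of 16427 were called, 978 higher and 1883 lower in replicate 2. The number was 2860 of 16427 with DESeq2 size factors, 2556 of 25743 with no filter and 2959 of 11057 with a mean count of at least 50. It was 1444 of 15353 with the highest transcript and 2368 of 13028 with protein-coding transcripts. With the density trend removed it was 1927, and with the running median by transcript number subtracted 1765. EdgeR's exact test called 11, with 721 at an unadjusted p under 0.05. The 3 calls thus stood beside differing shares of all genes. With library totals 1896 were higher and 1227 lower. Of 60 alternative levels of the 10 genes, 25 moved by more than the SD. Part of the others could not move. A level from 1 of 2 replicates always lies within the SD of their mean. For the 6 genes with 1 transcript, the settings with coding transcripts repeat the main level. Settings by transcript length divide the same counts by another length, so their shifts in level are a change of unit. The ratio of Slc17a6 to Slc17a7 was 1.06 by either transcript length. The ratio of Gad1 to Gad2 was 3.46 by count-weighted and 2.91 by longest transcript length, 0.690 with the highest coding transcript and 1.16 with all coding transcripts. Leaving out a replicate gave ranges of 1.38 to 1.62, 1.54 to 2.05 and, for the glutamate transporters over Slc32a1, 1.34 to 1.71. Apart from the change of length, the causes of these shifts were not tested. No paired analysis was possible because the samples form 1 group. Depth limits Chat, Slc17a8 and Slc18a3 most.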
